A study of Mus musculus with 6 samples.

Results

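The genes described here are the 9 enzymes of serine synthesis and of the folate cycle that follows it, Phgdh, Psat1, Psph, Shmt1, Shmt2, Mthfd1, Mthfd2, Mthfd1l and Tyms. They were chosen by gene name, and each matched 1 of the 22880 genes in the deposited table. All 9 passed the filter on low counts, as did 12014 genes in all. RNA was measured in MC-38GFP cells, a mouse colon adenocarcinoma line with green fluorescent protein, which were sorted as living GFP+ CD45- CD31- cells from tumors grown in the cecum wall of C57BL/6J mice. Both groups carried the lentiviral vector pLKO.1-puro and had not been passaged in vivo. The HIF-1α-KD cells had a knockdown of HIF-1α, so some Hif1a transcript was left, and the Mock cells were their control. Each group had 3 libraries. The age of the mice, the number of clones behind each cell line and the number of tumors behind each library were not given in the sources used here, so p-values measure the spread between these libraries, part of which may be technical.

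Serine is made from the glycolytic intermediate 3-phosphoglycerate in 3 steps, by Phgdh, Psat1 and Psph. The SHMT enzymes then move a carbon unit from serine onto tetrahydrofolate, which also yields glycine, and the MTHFD enzymes convert this unit between its oxidation states. Both steps exist in the cytosol (Shmt1, Mthfd1) and in the mitochondria (Shmt2, Mthfd2, Mthfd1l), and the carbon units are used for purines, thymidylate and methionine. Proliferating cells draw on these reactions for nucleotide synthesis, and the upstream 3-phosphoglycerate comes from glycolysis, a pathway with many HIF-1 target genes. The comparison asked whether the RNA of these enzymes differed when HIF-1α was knocked down in the tumor cells.

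Between 19845791 and 30809327 reads per library fell on genes. Hif1a, the targeted gene, had normalized counts (reads divided by a factor for each library) of 6914, 5424 and 4945 (Mock) against 697.3, 3142 and 1928 (HIF-1α-KD), with a limma adjusted p of 0.219. Every HIF-1α-KD library was thus below every Mock library, and what was left of the transcript differed 4.51-fold between the lowest and the highest of them. Macrophage transcripts stood apart in HIF-1α-KD replicate 3, where 8 leukocyte markers summed to 12726 normalized counts, against 2451 to 3986 in the other 5 libraries. Of 7 colon epithelial markers, 3 had enough reads to be tested, and the 7 together summed to between 60.3 and 469.9 normalized counts per library, with Epcam between 2.31 and 37.5. Markers of colon epithelium were thus low in these cells, which are defined here by the sort for GFP.

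None (0 of 9) of the enzymes differed between the groups at a limma p-value adjusted over all genes tested under 0.05. Of all genes tested, 0.391% passed this threshold, 0.00832% higher and 0.383% lower in HIF-1α-KD cells. The same count was 0 with the quasi-likelihood test of edgeR, which called 0.391% of all genes, and 0 with DESeq2, which called 2.36%. At an unadjusted limma p-value under 0.05 there were 2 of 9, Mthfd1 with more RNA in HIF-1α-KD cells and Mthfd1l with less, against 12.7% of all genes tested (7.04% higher, 5.69% lower). The edgeR and DESeq2 tests each gave 1 of 9, Mthfd1l, against 12.4% and 13% of all genes. The groups did not overlap for the same 2 genes, against 19.2% of all genes (10.4% higher, 8.75% lower). The log2 fold change of HIF-1α-KD against Mock, taken on log2 of the normalized count plus 1, was above 0 for 8 enzymes and under 0 for 1. Its median over the 9 was 0.16, beside 0.02 over all genes tested, and it was 0.06 without Mock replicate 1 and 0.08 without HIF-1α-KD replicate 1. For all 9 enzymes, the 95% interval of the difference lay within a 2-fold change in either direction. In a bulk measurement of sorted cells, fewer cells with a transcript and less of it per cell cannot be told apart.

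**Figure D1:**
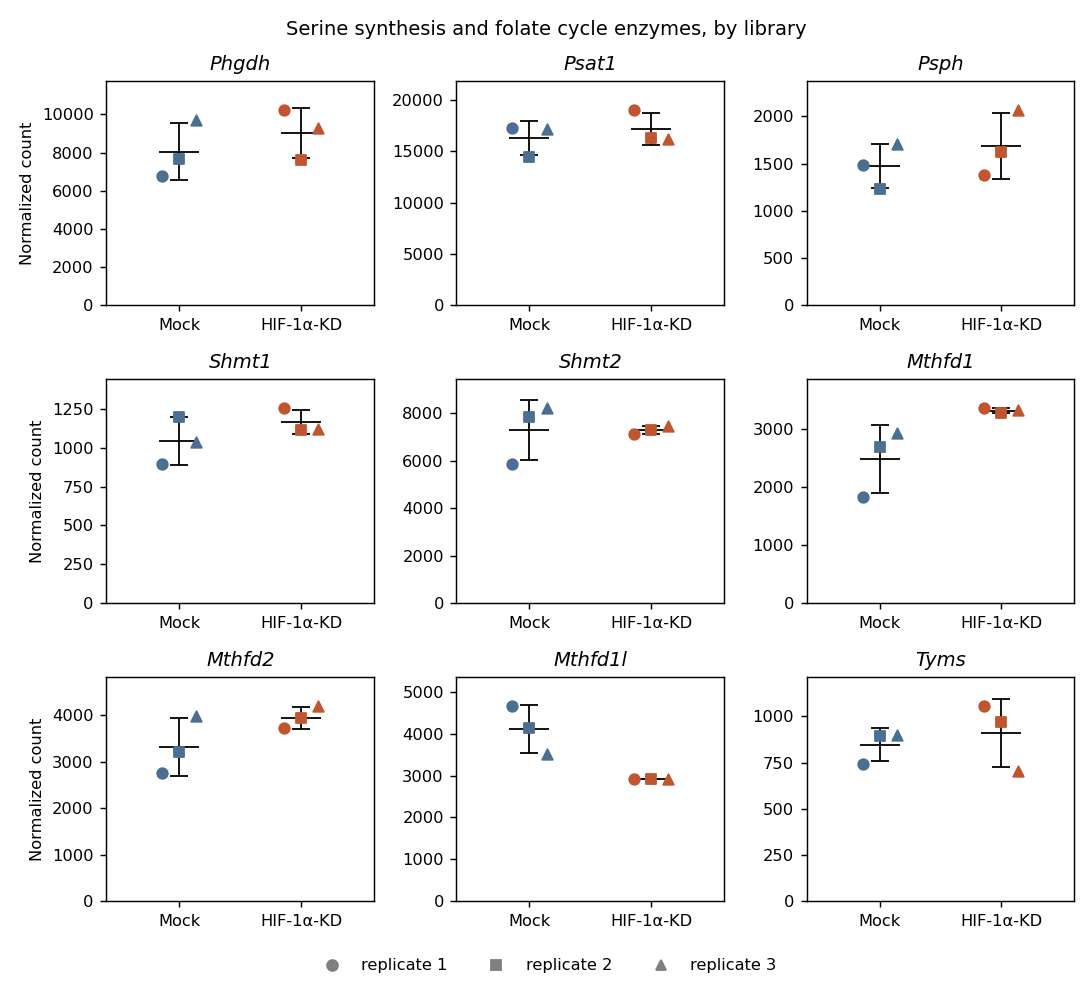
Normalized counts (vertical axes, starting at 0) of the 9 enzymes in the 3 Mock and 3 HIF-1α-KD libraries; symbols give the replicate number of the labels, and bars the mean and SD of each group. The groups are apart for Mthfd1 and Mthfd1l and overlap in the other 7 panels, and Mock replicate 1 is the lowest library in 5 of the 9.

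Phgdh and Psat1, of the first 2 steps of serine synthesis, had the highest levels of the 9 enzymes. Levels between genes were compared as FPKM, which divides reads by the gene width given in the table and by the depth of the library. Psat1, the phosphoserine aminotransferase of the second step, had 546.8, 487.9 and 547.4 FPKM (Mock) against 622.6, 556.3 and 555.1 (HIF-1α-KD). It ranked 191st by mean FPKM among the 12014 genes tested. Phgdh, the dehydrogenase that commits 3-phosphoglycerate to serine, had 291.8, 352.0 and 419.3 FPKM (Mock) against 454.9, 353.9 and 431.7 (HIF-1α-KD), and ranked 272nd. Psph, the phosphatase of the last step, was lower, with 47.8, 42.6 and 55.3 FPKM (Mock) against 46.0, 56.3 and 71.9 FPKM (HIF-1α-KD). Phgdh and Psat1 together made up between 62.7% and 68.5% of the summed FPKM of the 9 enzymes in each library.

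In Mock cells the levels ran from Psat1 through Phgdh, Mthfd2, Shmt2, Mthfd1l, Psph, Shmt1 and Mthfd1 to Tyms, which had 22.6 ± 2.87 FPKM (SD, n = 3). Psat1 lay above Phgdh in every library of both groups, Phgdh above Mthfd2, and Shmt2 above Mthfd1l. Between Mthfd2 and Shmt2, and between all neighbours from Mthfd1l down to Tyms, the ranges of the Mock libraries overlapped. This order depends in part on gene length. The width in the table was 906 bases for Phgdh, whose longest GENCODE transcript has 1893 bases, while both lengths nearly matched for Shmt2 (2300 and 2289 bases). With the longest transcript as the length, Psat1 and Phgdh were again the highest and Tyms the lowest in Mock cells, and Mthfd1l kept its place in the middle. Shmt2 then came before Mthfd2, and Mthfd1 before Psph and Shmt1.

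The groups overlapped for all 3 enzymes of serine synthesis. Phgdh (ENSMUSG00000053398, chromosome 3, 98313170 to 98339990, minus strand) had normalized counts of 6781, 7658 and 9702 (Mock) against 10210, 7630 and 9280 (HIF-1α-KD). The highest Mock library was thus above 2 of the 3 HIF-1α-KD libraries, and the log2 fold change was 0.17 (95% interval -0.23 to 0.58, limma adjusted p = 0.724). It was 0.06 without Mock replicate 1, 0.08 without HIF-1α-KD replicate 1, 0.29 without HIF-1α-KD replicate 2 and 0.32 without Mock replicate 3. Psat1 (ENSMUSG00000024640, chromosome 19, 15904678 to 15947337, minus strand) had normalized counts of 17250, 14410 and 17200 (Mock) against 18980, 16280 and 16200 (HIF-1α-KD). With all libraries it was the most even of the 3 between the groups, with a log2 fold change of 0.08 (95% interval -0.25 to 0.41, limma adjusted p = 0.855). This was -0.010 without Mock replicate 2 and 0.12 without Mock replicate 1. Psph (ENSMUSG00000029446, chromosome 5, 129765558 to 129787449, minus strand) had normalized counts of 1483, 1236 and 1708 (Mock) against 1380, 1620 and 2064 (HIF-1α-KD), a log2 fold change of 0.19 (95% interval -0.25 to 0.63, limma adjusted p = 0.728). Its highest value was that of HIF-1α-KD replicate 3, the library with more macrophage transcripts, and without this library the log2 fold change was 0.03. It was 0.06 without Mock replicate 2, 0.30 without Mock replicate 3 and 0.32 without HIF-1α-KD replicate 1. The part of macrophage transcripts in the value was not tested. Psph shares 452 bases with Cct6a on the opposite strand, which had between 11480 and 14860 normalized counts, and the strand setting of the counting was not given in the sources used here.

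Both serine hydroxymethyltransferases, which split serine into glycine and a folate-bound carbon unit, also overlapped between the groups. Shmt2 (ENSMUSG00000025403, chromosome 10, 127517123 to 127522444, minus strand) makes the mitochondrial enzyme and had normalized counts of 5872, 7855 and 8219 (Mock) against 7152, 7298 and 7490 (HIF-1α-KD). All 3 HIF-1α-KD libraries lay inside the range of the Mock libraries, and the log2 fold change of 0.01 (95% interval -0.34 to 0.37, limma adjusted p = 0.977) was the smallest in size of the 9 with all libraries. Without Mock replicate 1 it was -0.14, larger in size than that of Tyms (-0.0038). Shmt2 shares 32 bases with Ndufa4l2 on the opposite strand, which reached at most 285.6 normalized counts in a Mock library and 61.2 in a HIF-1α-KD library. Shmt1 (ENSMUSG00000020534, chromosome 11, 60788104 to 60811718, minus strand), the cytosolic form, had normalized counts of 895.0, 1199 and 1036 (Mock) against 1252, 1114 and 1122 (HIF-1α-KD). Mock replicate 2 lay above 2 of the HIF-1α-KD libraries, and the log2 fold change was 0.16 (95% interval -0.20 to 0.53, limma adjusted p = 0.708). It was 0.06 without Mock replicate 1 and 0.27 without Mock replicate 2. Shmt1 shares 184 bases with Smcr8 on the opposite strand. Per length, the Shmt2 level was between 2.71 and 3.76 times that of Shmt1 in the 6 libraries, and the groups overlapped in this ratio. Its size depends on the widths of the table: with the longest transcript as the length, the mean levels in Mock cells were 128 for Shmt2 and 14.6 for Shmt1.

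Of the 3 MTHFD genes, Mthfd1 and Mthfd2 had log2 fold changes above 0 and Mthfd1l one under 0. Mthfd1 (ENSMUSG00000021048, chromosome 12, 76255298 to 76319803, plus strand) encodes the trifunctional cytosolic enzyme. Its normalized counts were 1828, 2687 and 2938 (Mock) against 3359, 3272 and 3330 (HIF-1α-KD). Every HIF-1α-KD library was above every Mock library, and Mock replicate 1 lay far below the other 2. The log2 fold change was 0.45 (95% interval 0.02 to 0.87, limma unadjusted p = 0.0413, adjusted p = 0.382). It was 0.24 without Mock replicate 1, with an unadjusted limma p of 0.0911. The unadjusted p was also above 0.05 without any single HIF-1α-KD library, at 0.0748 to 0.0824, where the log2 fold change was 0.44 to 0.46. An antisense gene, Gm34868, covers 19090 bases of Mthfd1 and was not in the table.

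Mthfd1l (ENSMUSG00000040675, chromosome 10, 3973118 to 4167081, plus strand) encodes the mitochondrial synthetase that releases formate for export to the cytosol. Its normalized counts were 4651, 4135 and 3509 (Mock) against 2924, 2927 and 2927 (HIF-1α-KD). Every HIF-1α-KD library was below every Mock library, and the log2 fold change was -0.48 (95% interval -0.80 to -0.15, limma unadjusted p = 0.00954, adjusted p = 0.275). The unadjusted p stayed under 0.05 in each of the 16 alternatives, between 0.00384 and 0.0344, while the adjusted p was between 0.105 and 0.551 in limma, edgeR and DESeq2. The 3 HIF-1α-KD libraries had 3635, 2441 and 2534 reads of Mthfd1l, and after scaling their SD was 0.0592% of the mean, the smallest among the 12014 genes tested. Counting of reads alone gives an SD of 1.87% at this depth, so the closeness of the 3 values is below what counting error gives. The same 3 libraries differed 4.51-fold in Hif1a. The summed markers of fibroblasts and of endothelium also lay apart between the groups. Most of each sum was a single gene, Col3a1 for fibroblasts and Cdh5 for endothelium. Of the 6 fibroblast markers, 4 had log2 fold changes above 0 and 2 under 0 (Dcn and Lum). Of the 3 endothelial markers tested, 2 were above 0 (Tek and Pecam1) and 1 under 0 (Cdh5). The 6 fibroblast markers summed to 96280 to 167037 normalized counts per Mock library against 202725 to 243907 per HIF-1α-KD library, and the groups were apart for Col3a1 (64990, 135100 and 84960 against 206400, 194900 and 179700) and overlapped for the other 5. The 6 endothelial markers summed to 504.8 to 616.0 against 309.5 to 483.2, with Cldn5 and Emcn near 0, and the groups were apart for Cdh5 (422.3, 532.1 and 568.9 against 285.5, 395.7 and 197.5) and overlapped for the other 5. Among all genes tested, 19.2% did not overlap between the groups. Whether these marker transcripts came from other cells or from the sorted tumor cells was not tested. Nor was the part of RNA from other cells in the Mthfd1 and Mthfd1l values tested.

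Mthfd2 (ENSMUSG00000005667, chromosome 6, 83305691 to 83325908, minus strand) encodes the mitochondrial dehydrogenase and cyclohydrolase. It had normalized counts of 2749, 3215 and 3991 (Mock) against 3722, 3932 and 4193 (HIF-1α-KD). Mock replicate 3 lay above 2 of the HIF-1α-KD libraries, and the log2 fold change was 0.27 (95% interval -0.10 to 0.64, limma adjusted p = 0.538). It was 0.41 without Mock replicate 3 (limma adjusted p = 0.387) and 0.14 without Mock replicate 1 (limma adjusted p = 0.845).

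Since Mthfd1l and Mthfd1 encode the mitochondrial and the cytosolic formyltetrahydrofolate synthetase, their levels per length were also set against each other in each library. The FPKM of Mthfd1l was 2.91, 1.76 and 1.37 times that of Mthfd1 in the Mock libraries. In the HIF-1α-KD libraries this ratio was 0.997, 1.02 and 1.01. The groups could not overlap in it, since every HIF-1α-KD library was lower in Mthfd1l and higher in Mthfd1 than every Mock library. The ratio thus adds no separate result. Its mean was 2.01 ± 0.802 (SD, n = 3) for Mock against 1.01 ± 0.0138 (SD, n = 3) for HIF-1α-KD. Mock replicate 1 held the highest ratio, and the ratio was formed after the values of both genes were known, so it was given no test. With the longest transcript as the length, the mean level in HIF-1α-KD cells was 32.9 for Mthfd1l and 42.5 for Mthfd1, so a ratio near 1 rests on the widths of the table, whereas the order of the libraries does not. The ratio of Mthfd2 to Mthfd1 was 5.04 ± 0.573 (SD, n = 3) for Mock against 4.43 ± 0.284 (SD, n = 3) for HIF-1α-KD, and the groups overlapped. It too depends on the widths, since with the longest transcript the mean levels in Mock cells were 63.5 for Mthfd2 and 30.7 for Mthfd1.

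**Figure D2:**
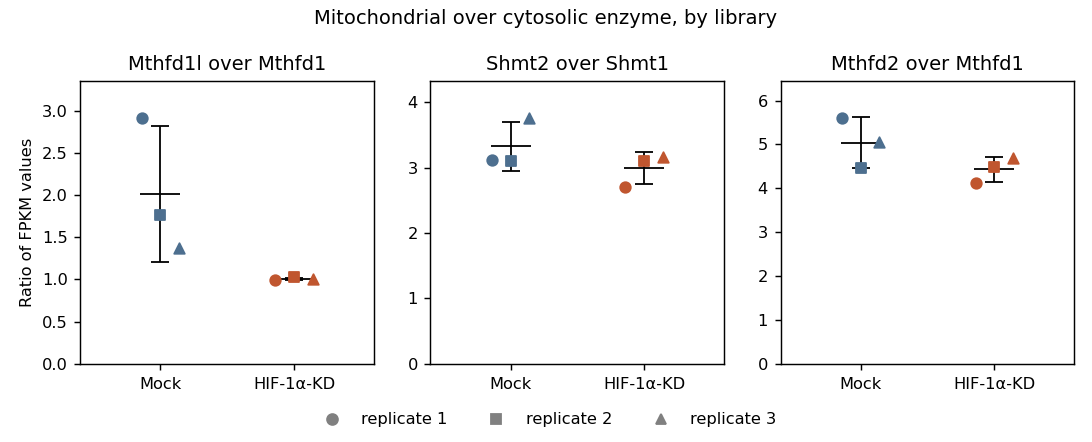
Ratio of the FPKM of a mitochondrial enzyme to that of a cytosolic one (vertical axes, starting at 0) in each library; symbols give the replicate number, and bars the mean and SD of each group. The HIF-1α-KD libraries lie together at 0.997 to 1.02 for Mthfd1l over Mthfd1, below all Mock libraries, and the groups overlap in the other 2 ratios. The separation for Mthfd1l over Mthfd1 was already fixed by the values of each gene.

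The upstream sequences of Mthfd1 and Mthfd1l are shown because these are the 2 enzymes whose groups did not overlap. They are the 250 bases before the RefSeq start site (GRCm38.p6), written 5′ to 3′ on the strand of the gene. Mthfd1 lies at chr12:76254982-76255231 (plus strand) and Mthfd1l at chr10:3972825-3973074 (plus strand). For both, the GENCODE gene start lies downstream of the RefSeq start site, at 76255298 against 76255232 for Mthfd1 and 3973118 against 3973075 for Mthfd1l. Distances to the start site thus depend on the annotation used. Capitals mark matches on either strand to ACGTG or GCGTG, the core of HIF-binding sites, and to CCAAT, the box bound by NF-Y. In both sequences all matches lie on the opposite strand and so are read here as reverse complements.
Mthfd1: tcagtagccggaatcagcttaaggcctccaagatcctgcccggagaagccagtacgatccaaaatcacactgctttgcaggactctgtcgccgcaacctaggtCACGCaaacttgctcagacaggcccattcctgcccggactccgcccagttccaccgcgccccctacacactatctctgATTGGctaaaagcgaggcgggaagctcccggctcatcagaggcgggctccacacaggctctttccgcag
Mthfd1l: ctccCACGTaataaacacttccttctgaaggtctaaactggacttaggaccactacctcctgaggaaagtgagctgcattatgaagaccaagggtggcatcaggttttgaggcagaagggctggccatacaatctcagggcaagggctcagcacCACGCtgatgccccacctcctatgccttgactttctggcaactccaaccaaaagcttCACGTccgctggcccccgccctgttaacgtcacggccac

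Mthfd1 held GCGTG once, 147 bases before the start site, and CCAAT once, 69 bases before it. Mthfd1l held ACGTG at 246 and at 39 bases and GCGTG at 96 bases before the start site, and no CCAAT. Over all 9 enzymes, ACGTG was found in 3 (Psph, Mthfd1l and Tyms), GCGTG in 6 and CCAAT in 6, Psat1 being counted over its 2 start sites. In all 32851 promoters of the same length, these shares were 16.57%, 28.16% and 33.85%. CACGTG, the E-box bound by MYC, which overlaps ACGTG, was found in Tyms alone among the 9, 61 bases before the start site, and in 6.02% of all promoters. TGATGNAA, the letters searched for the ATF4 composite site, was found in 0 of 9 and in 3.45% of all promoters. These are matches of letters, with no binding measured.

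Tyms (ENSMUSG00000025747, chromosome 5, 30058202 to 30073617, minus strand) encodes thymidylate synthase, which uses a folate carbon unit to make thymidylate for DNA. It had the fewest reads of the 9, with 604 to 1310 per library. Its normalized counts were 743.6, 893.8 and 901.1 (Mock) against 1054, 968.8 and 702.3 (HIF-1α-KD). Both the highest and the lowest library were HIF-1α-KD, and the log2 fold change was 0.09 (95% interval -0.35 to 0.53, limma adjusted p = 0.882). This was -0.031 without HIF-1α-KD replicate 1 and 0.26 without HIF-1α-KD replicate 3. The 16 cell cycle and DNA replication markers listed summed to 57471, 77816 and 72226 normalized counts (Mock) against 91470, 79152 and 51516 (HIF-1α-KD). The libraries lowest in Tyms, HIF-1α-KD replicate 3 and Mock replicate 1, were also the lowest in this sum, and HIF-1α-KD replicate 1 was the highest in both. Not every marker followed the sum. Mki67 was highest in HIF-1α-KD replicate 3 (2344 normalized counts) and lowest in Mock replicate 1 (225.3). None (0 of 16) of these markers passed the adjusted limma threshold. At an unadjusted p under 0.05, 1 of the 16 was higher and 1 lower, against 7.04% higher and 5.69% lower of all genes tested. Ccne1, the cyclin of S phase entry, was higher (log2 fold change 0.72, limma adjusted p = 0.342) and Ccnb1, a mitotic cyclin, was lower (log2 fold change -0.76, limma adjusted p = 0.382). Their groups overlapped.

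**Figure D3:**
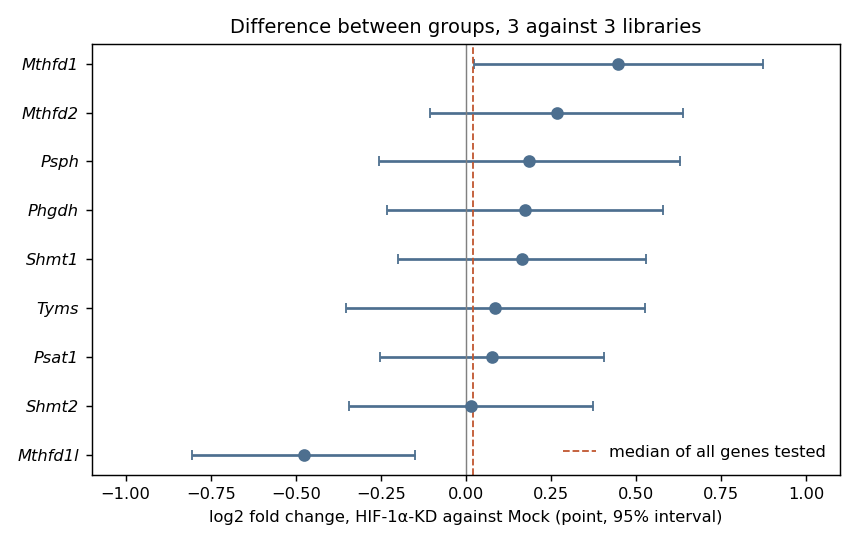
Log2 fold change of HIF-1α-KD against Mock (horizontal axis) for the 9 enzymes; points are the limma estimates from 3 against 3 libraries and bars their 95% intervals. The interval lies above 0 for Mthfd1 (0.02 to 0.87) and under 0 for Mthfd1l (-0.80 to -0.15) and spans 0 for the other 7, and the dashed line at 0.02 is the median of all genes tested.

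Of 15 listed genes for folate interconversion, transport and storage, 13 were tested and 0 passed the adjusted limma threshold. None (0 of 13) had an unadjusted p-value under 0.05 (12.7% of all genes tested), and the median log2 fold change of the 13 was -0.01. The groups did not overlap for 1 of the 13 (19.2% of all genes), Slc25a32, the mitochondrial folate carrier, which is named after its values were seen. It had normalized counts of 705.4, 645.0 and 526.7 (Mock) against 769.7, 778.2 and 778.5 (HIF-1α-KD), with a log2 fold change of 0.32 (limma adjusted p = 0.467). Of 23 genes for serine and glycine transport, cleavage and use, 21 were tested and 0 passed the adjusted threshold. At an unadjusted p under 0.05, 1 of the 21 was lower (5.69% of all genes tested). The groups did not overlap for 2 of the 21, Sfxn3 and the glycine transporter Slc6a9, both lower (8.75% of all genes tested). The 1 at an unadjusted p under 0.05 was Sfxn3, of the sideroflexin family of mitochondrial serine carriers, with 6182, 4480 and 4782 normalized counts (Mock) against 3834, 4144 and 3374 (HIF-1α-KD), with a log2 fold change of -0.43 (limma adjusted p = 0.342). Sfxn1, a mitochondrial serine carrier of the same family, had a log2 fold change of 0.16 (limma adjusted p = 0.687). Gldc and Amt of the glycine cleavage system were near the lower end of detection, with 8.85 to 46.9 and 7.19 to 19.3 normalized counts, and the serine dehydratase Sds was at 0 reads in all 6 libraries.

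Of 13 genes of the methionine cycle and transsulfuration, 7 were tested and 0 passed the adjusted limma threshold. The groups did not overlap for 2 of the 7, Mat2a and Mtrr, both higher (10.4% of all genes tested). The 1 gene higher at an unadjusted p under 0.05 (7.04% of all genes tested) was Mat2a, which makes S-adenosylmethionine from methionine. It had normalized counts of 2248, 2022 and 2169 (Mock) against 2608, 3210 and 3372 (HIF-1α-KD), without overlap (log2 fold change 0.51, limma adjusted p = 0.261). Both enzymes of transsulfuration were low, with Cbs at 0 to 1.91 and Cth at 2.41 to 42.0 normalized counts. Of 16 genes of purine and thymidylate synthesis, all tested, 0 passed the adjusted limma threshold, and their median log2 fold change was -0.06. The groups did not overlap for 3 higher (Ppat, Adsl and Dctd) and 1 lower (Dut) of the 16, against 10.4% higher and 8.75% lower of all genes tested. At an unadjusted p under 0.05, Dctd (log2 fold change 0.33, limma adjusted p = 0.390), which makes the dUMP used by Tyms, was higher, and Dut (log2 fold change -0.39, limma adjusted p = 0.367), which makes dUMP from dUTP, was lower. Of all genes tested, 7.04% were higher and 5.69% lower at this threshold.

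ATF4, a transcription factor that induces serine synthesis and mitochondrial folate enzymes under amino acid shortage, had normalized counts of 9366, 8410 and 11310 (Mock) against 9187, 9843 and 10570 (HIF-1α-KD), with a log2 fold change of 0.03 (limma adjusted p = 0.946). Of 15 genes of its list, 0 passed the adjusted limma threshold. At an unadjusted p under 0.05, 1 was higher (7.04% of all genes tested) and 2 were lower (5.69%). The higher one was Sesn2 (log2 fold change 0.47, limma adjusted p = 0.381). The lower ones were Eif4ebp1 (log2 fold change -0.49, limma adjusted p = 0.275) and Cebpb (log2 fold change -0.58, limma adjusted p = 0.345). Both were without overlap, as were 8.75% of all genes tested in this direction. The median of the list was 0.14, beside 0.16 for the 9 enzymes. Of 6 genes of MYC and its partners, 5 were tested and 1 fell at an adjusted p under 0.05 (0.383% of all genes tested). This was Mxi1, a repressor that competes with MYC for MAX, with 1691, 1344 and 1481 normalized counts (Mock) against 703.8, 544.4 and 549.8 (HIF-1α-KD), with a log2 fold change of -1.33 (limma adjusted p = 0.0242, standard error 0.17). No gene (0 of 12014) passed the adjusted threshold with a replicate block, without HIF-1α-KD replicate 2 or without Mock replicate 3, so the Mxi1 call was lost there. At an unadjusted p under 0.05, where 5.69% of all genes tested were lower, Mnt, another repressor that pairs with MAX, was lower too (log2 fold change -0.72, limma adjusted p = 0.382). Myc itself had 1096, 1428 and 1421 normalized counts (Mock) against 636.2, 942.5 and 1618 (HIF-1α-KD), and the groups overlapped (log2 fold change -0.40, limma adjusted p = 0.625).

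**Figure D4:**
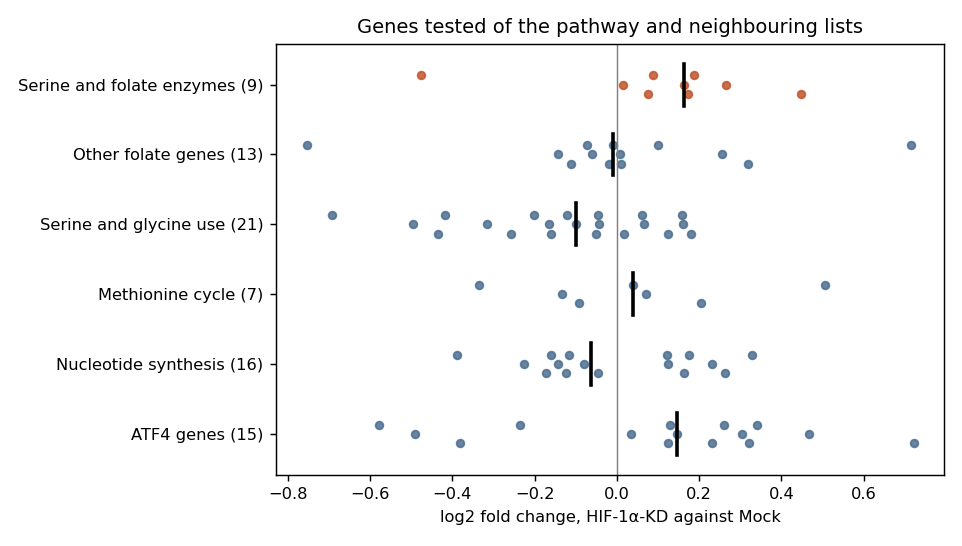
Log2 fold change of HIF-1α-KD against Mock (horizontal axis) of each tested gene of the 9 serine and folate enzymes and of 5 related lists, with the number tested in brackets; each point is a gene and each black line the median of its list. The medians lie between -0.10 for serine and glycine use and 0.16 for the 9 enzymes, and no gene in these rows passed the adjusted limma threshold.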

How the data were processed

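After adaptor and end trimming, the authors used STAR for alignment and featureCounts to count reads on genes. The submitters' processing notes name GRCm38 and edgeR, whereas the paper's methods name GRCh38 and DESeq2; the gene identifiers are those of mouse. The deposited normalized count is a signal, in which the authors divided the count of each gene by one factor per library and kept 4 significant digits. The authors' FPKM values, gene widths and GC fraction (not used for a result) were deposited too. The deposited log2 ratio, p-value and false discovery rate are the authors' own comparison and were not used.

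Multiplying by the factor of each library gave back the reads, and 100% of values up to 300 reads were then within 0.1 of a whole number; reads of higher values carry the rounding of the table. Libraries had 19845791 to 30809327 reads on genes. filterByExpr of edgeR 4.0.16 (minimum count of 10, by group) kept 12014 genes. Then limma 3.58.1 with a mean-variance trend compared log2 of the normalized count plus 1 between 3 Mock and 3 HIF-1α-KD libraries (two-sided, Benjamini-Hochberg adjustment over all genes tested). Intervals are 95% intervals of that fit. An exact permutation test of 3 against 3 cannot go below p = 0.1, so none is given. The tests were checked on simulated data. Alternatives were edgeR, DESeq2 1.42.0, limma without trend, 3 other scalings, pseudocounts of 0.1 and 10, no filter, a replicate block and each library left out. Positions are from GENCODE M21 (GRCm38), and promoters from RefSeq (GRCm38.p6), matched by symbol for all 9 enzymes. Reads that also match the pseudogenes Phgdh-ps1 and Tyms-ps could not be assigned here. Named genes are the 9 enzymes, Hif1a and up to 4 genes of each other list at an unadjusted p under 0.05; a rule for genes of similar pattern applied only to members spanning at least 1 log2 unit, which none of the 9 did. Slc25a32, Slc6a9, Mtrr, Ppat, Adsl, Sfxn1, Myc, Atf4, Serinc1, Serinc3, the markers Epcam, Dcn, Lum, Tek, Pecam1 and Mki67, and the genes named as barely detected fall outside this rule and were chosen after their values were seen. Members, lists and motifs were chosen with earlier results of these data known. Software was R 4.3.3 and Python 3.11.15 with numpy 2.4.6, pandas 2.3.3, matplotlib 3.10.9 and scipy 1.17.1.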

Additional observations from a re-analysis of the deposited data

How the results depend on the processing

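Of 144 log2 fold changes of the 9 enzymes under 16 alternatives, 136 kept their sign and none (0) passed an adjusted p of 0.05. The 8 that changed sign belonged to Shmt2, Psat1 and Tyms. For Shmt2 the log2 fold change was -0.013 with DESeq2, -0.0073 with TMM scaling and -0.022 with edgeR, and between -0.14 (without Mock replicate 1) and 0.11 with a library left out, including -0.0026 without HIF-1α-KD replicate 3. For Psat1 it was between -0.010 (without Mock replicate 2) and 0.12 with a library left out. For Tyms it was between -0.031 (without HIF-1α-KD replicate 1) and 0.26, including -0.0038 without Mock replicate 1. The number of enzymes at an unadjusted p under 0.05 was 2 in limma and 1 with edgeR, with DESeq2 and with limma without trend, and between 1 and 3 with a library left out. Mthfd1l was counted in all 16 alternatives. Mthfd1 was not counted in those 3 tests, nor without Mock replicate 1 or any HIF-1α-KD replicate, and Mthfd2 was added without Mock replicate 3. The median of the 9 was between 0.06 (without Mock replicate 1) and 0.19 with a library left out, 0.08 without HIF-1α-KD replicate 1, and at most 0.22 otherwise.

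The count of all genes at an adjusted p under 0.05 moved from 47 to 283 with DESeq2, to 1 without trend, to 0 with a replicate block and to between 0 and 37 with a library left out. The sources used here do not say whether the replicate numbers pair the libraries. Deviations from the group means correlated at -0.14, -0.12 and 0.02 between libraries of the same number, and 0 of 6 libraries correlated best with its own number. These correlations cannot exclude a pairing, since the deviations sum to 0 within each group of 3. With the replicate block, 0 enzymes passed the adjusted threshold, 2 had an unadjusted p under 0.05, and their median was 0.16. With 604 to 23598 reads per enzyme and library, counting error was below the spread between libraries of a group, except for Mthfd1l and Mthfd1 among HIF-1α-KD libraries.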

Other observations

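The libraries differed more within the Mock than within the HIF-1α-KD group for 7 of the 9 enzymes, as the SD in percent of the mean normalized count. For Mthfd1 this SD was 23.4% (Mock) against 1.33% (HIF-1α-KD), and 0.749% of all genes tested had an SD as small in HIF-1α-KD libraries. For Shmt2 it was 17.3% (Mock) against 2.32% (HIF-1α-KD). Psph (16.0% and 20.6%) and Tyms (10.5% and 20.2%) went the other way. The difference in spread was not tested, and the share of all genes with a smaller SD in HIF-1α-KD libraries was not computed. Mock replicate 1 was the lowest library for 5 of the 9. The count of 7 thus cannot be read as particular to these enzymes.

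In the table's Gene Ontology terms, 6 of the 9 enzymes carry mitochondrion, 5 one-carbon metabolism and 4 serine biosynthesis. Serinc1 and Serinc3, of a family named for the incorporation of serine into membrane lipids, were chosen after their values were seen and had log2 fold changes of -0.50 (limma adjusted p = 0.393) and -0.42 (limma adjusted p = 0.466).

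Of the marker lists, 0 of 7 leukocyte, 0 of 3 endothelial, 0 of 6 fibroblast, 0 of 2 smooth muscle and 0 of 3 epithelial genes tested passed the adjusted limma threshold. Of the fibroblast markers, Col3a1 (log2 fold change 1.09, limma adjusted p = 0.206) and Pdgfrb (log2 fold change 0.59, limma adjusted p = 0.387) were higher at an unadjusted p under 0.05, against 7.04% of all genes tested. Dcn (-0.38, limma adjusted p = 0.646) and Lum (-0.16, limma adjusted p = 0.934) had log2 fold changes under 0. Of the 3 endothelial markers tested, Cdh5 (log2 fold change -0.84, limma adjusted p = 0.294) was lower at an unadjusted p under 0.05, against 5.69% of all genes tested. Tek (1.26, limma adjusted p = 0.484) and Pecam1 (0.26, limma adjusted p = 0.830) had log2 fold changes above 0.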
